A study of Mus musculus with 6 samples.

Results

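The data covered 43 named genes of adipocytes and of lipid metabolism, out of 21000 mouse protein-coding genes with a curated RefSeq transcription start site (TSS). The genes were taken from a fixed list of names, which was chosen with earlier results of these data known. They were grouped here into 9 roles: uptake and binding of fatty acids and glucose, lipid droplet coat and assembly, lipolysis, fatty acid synthesis, triglyceride synthesis, sterol regulation, adipokines, thermogenic genes, and fatty acid activation and oxidation. A gene was counted as having an Lsd1 promoter peak where the centre of a called peak lay within 2000 bp of any of its TSSs, and as having a gene body peak where a peak centre lay between its start and its end. The 20957 other protein-coding genes were counted in the same way.

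Lsd1 binding was mapped by ChIP-seq in C2C12 cells, a mouse myoblast line that forms myotubes in low serum, after 1 day of differentiation. There were 3 conditions, each with 1 ChIP library and 1 input library. Wild-type cells were kept either in myogenic medium, which is high-glucose DMEM with horse serum, or in adipogenic medium, which held fetal calf serum, isobutylmethylxanthine, indomethacin, dexamethasone, insulin, T3 and rosiglitazone. The third condition was LSD1-overexpressing [LSD1(OE)] cells in adipogenic medium. By the study's methods these cells were a stable line that carried a lentiviral, tetracycline-controlled, Flag-tagged LSD1 construct, were selected with G418, and received doxycycline before and during differentiation, and doxycycline is not named for the wild-type samples. The effect of LSD1 overexpression therefore cannot be told apart from that of doxycycline, selection or the line itself. The expression of the 43 genes was not measured in these libraries, so the state of the cells could not be checked against marker genes. With 1 library per condition every difference below is a difference between libraries, without a replicate check and without a p-value, and the intervals cover counting error only.

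Lsd1 is a histone demethylase that removes methyl groups from histone H3 and acts within complexes such as CoREST, mostly at promoters and enhancers. In adipocytes, fatty acids are taken up or made from acetyl-CoA, esterified to triglyceride, stored in coated lipid droplets and released by lipases, while brown adipocytes burn them by uncoupled respiration. Transcription of the lipid-synthesis genes is driven largely by the SREBP factors, and that of the adipocyte-specific genes by PPARγ and C/EBP factors late in differentiation.

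The myogenic, adipogenic and LSD1(OE) ChIP libraries held 46155625, 63915769 and 55193310 filtered tags, and 43426, 18893 and 33533 peaks. Peaks took up 7.12, 3.20 and 5.28% of the tags, and the weakest called peak had 27, 35 and 30 tags. The deepest library thus had the fewest peaks, and a gene without a peak is one at which no enrichment was called, which does not show that Lsd1 was absent. MACS scaled the ChIP tags up to the input by a factor of 1.90, 1.28 and 1.82, and this raises scores in the first and last of these libraries relative to the wild-type adipogenic one.

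The upstream sequences of 7 of the genes show the range of promoters that the results turn on. Insig1, Srebf2, Fasn and Pnpla2 carried strong peaks in all 3 libraries, Dio2 carried a peak in the myogenic library alone, and Adipoq and Ucp1 had no peak. Each sequence is the 200 bases before the TSS, from RefSeq on GRCm38.p6, which has the coordinates of mm10, and is written 5′ to 3′ on the strand of the gene. Capitals mark matches on either strand to the GC box GGGCGG, the E-box CAGCTG or the C/EBP motif TTGNNNCAA.
Insig1: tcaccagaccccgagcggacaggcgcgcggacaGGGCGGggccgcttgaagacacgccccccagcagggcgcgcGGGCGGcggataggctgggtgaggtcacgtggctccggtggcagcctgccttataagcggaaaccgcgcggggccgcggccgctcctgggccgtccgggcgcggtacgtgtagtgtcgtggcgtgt
Srebf2: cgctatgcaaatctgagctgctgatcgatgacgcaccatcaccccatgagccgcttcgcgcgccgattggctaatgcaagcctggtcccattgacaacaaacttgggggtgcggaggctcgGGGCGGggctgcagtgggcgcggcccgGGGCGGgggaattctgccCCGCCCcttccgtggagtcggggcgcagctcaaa
Fasn: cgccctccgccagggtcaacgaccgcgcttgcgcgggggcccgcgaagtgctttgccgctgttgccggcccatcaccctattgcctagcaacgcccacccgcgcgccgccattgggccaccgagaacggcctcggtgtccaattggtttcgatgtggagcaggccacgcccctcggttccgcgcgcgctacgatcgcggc
Pnpla2: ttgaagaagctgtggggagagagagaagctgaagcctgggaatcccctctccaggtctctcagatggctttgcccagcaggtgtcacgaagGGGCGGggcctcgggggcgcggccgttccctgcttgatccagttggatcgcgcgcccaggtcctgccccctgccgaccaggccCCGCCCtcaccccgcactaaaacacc
Dio2: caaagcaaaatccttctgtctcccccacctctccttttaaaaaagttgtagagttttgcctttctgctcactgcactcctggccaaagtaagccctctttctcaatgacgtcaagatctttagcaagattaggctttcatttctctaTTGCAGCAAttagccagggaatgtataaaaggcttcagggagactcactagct
Adipoq: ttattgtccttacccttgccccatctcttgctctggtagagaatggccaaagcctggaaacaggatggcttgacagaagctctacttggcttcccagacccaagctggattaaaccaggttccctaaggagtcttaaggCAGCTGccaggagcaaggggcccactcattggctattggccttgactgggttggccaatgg
Ucp1: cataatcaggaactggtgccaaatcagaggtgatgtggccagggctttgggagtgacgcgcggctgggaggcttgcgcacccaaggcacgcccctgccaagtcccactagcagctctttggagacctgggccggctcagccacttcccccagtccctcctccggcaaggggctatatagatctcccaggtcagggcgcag
These stretches lie at chr5:28071212-28071411 (Insig1), chr15:82147069-82147268 (Srebf2), chr11:120824548-120824747 (Fasn, minus strand), chr7:141454988-141455187 (Pnpla2), chr12:90739039-90739238 (Dio2, minus strand), chr16:23146336-23146535 (Adipoq) and chr8:83290148-83290347 (Ucp1). Insig1 and Fasn had 29 CpG dinucleotides each in the 200 bases, Srebf2 had 19, Pnpla2 12, Ucp1 8, Dio2 1 and Adipoq 0. GC boxes stood in the Insig1, Srebf2 and Pnpla2 stretches, an E-box in that of Adipoq and a C/EBP match in that of Dio2.

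Lsd1 promoter peaks were found at 24 of the 43 genes in the myogenic library, at 21 in the wild-type adipogenic library and at 24 in the LSD1(OE) library. These were 55.8% (95% Wilson interval 41.1 to 69.6), 48.8% (34.6 to 63.2) and 55.8% (41.1 to 69.6) of the genes, and the other protein-coding genes stood at 51.5%, 29.9% and 41.1%. The share of the 43 genes was thus near the background in the myogenic library and above it in both adipogenic-medium libraries, with the background outside the interval in the wild-type adipogenic library and just inside its lower end in the LSD1(OE) library. The strongest promoter peak of an occupied gene had a median score of 577, 300 and 440, where the score is 10 times the −log10 of the MACS p-value, against 322, 141 and 205 for the other occupied genes. Among genes with a myogenic promoter peak, 20 of 24 of the lipid genes (83.3%, interval 64.1 to 93.3) also had one in the wild-type adipogenic library, against 56.3% of the other genes, and 22 of 24 had one in the LSD1(OE) library, against 73.9%. Among genes without a wild-type adipogenic peak, 5 of 22 had an LSD1(OE) peak, near the background of 20.6%.

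**Figure D1:**
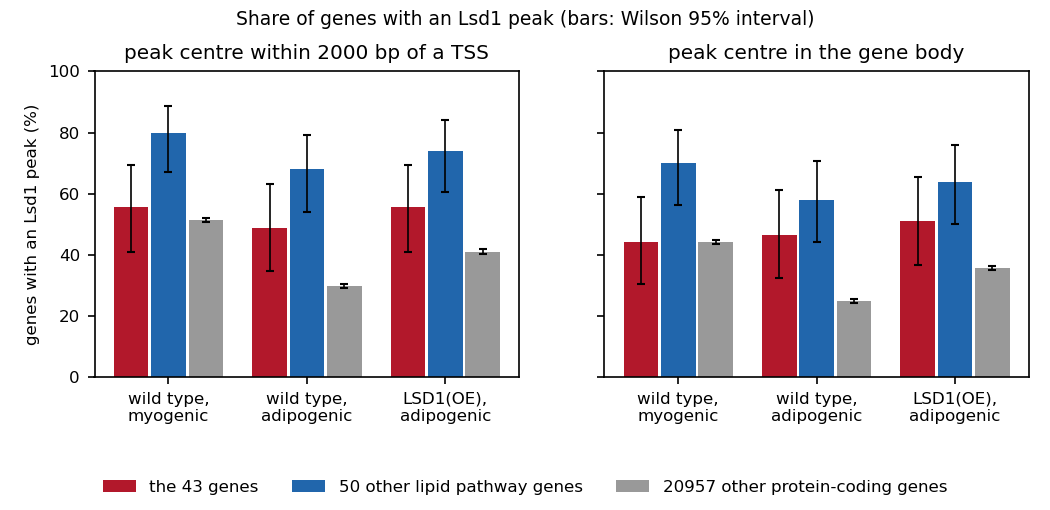
Share of genes with an Lsd1 peak near a TSS (left) or in the gene body (right), in percent, for the 43 genes, 50 other genes of lipid pathways and all 20957 other protein-coding genes, which include those 50. Error bars are 95% Wilson intervals, and the shares of the 43 genes differ least between libraries.

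All 3 libraries shared a promoter peak at 19 of the 43 genes (44.2%), against 26.3% of the other protein-coding genes. The 19 were Fabp5, Slc2a4, Plin2, Pnpla2, Acly, Fasn, Scd1, Scd2, Elovl6, Agpat2, Dgat1, Dgat2, Srebf1, Srebf2, Insig1, Cpt1a, Acadm, Acsl1 and Acsl3. A further 8 genes had one in 1 or 2 libraries, and 16 (37.2%, background 45%) had no promoter peak in any. Occupancy differed between the roles. Every one of the 3 sterol regulators was occupied in every library, as were 5 of the 7 genes of fatty acid synthesis and 4 of the 5 of activation and oxidation, while none of the 4 adipokine genes was occupied in any library.

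**Figure D2:**
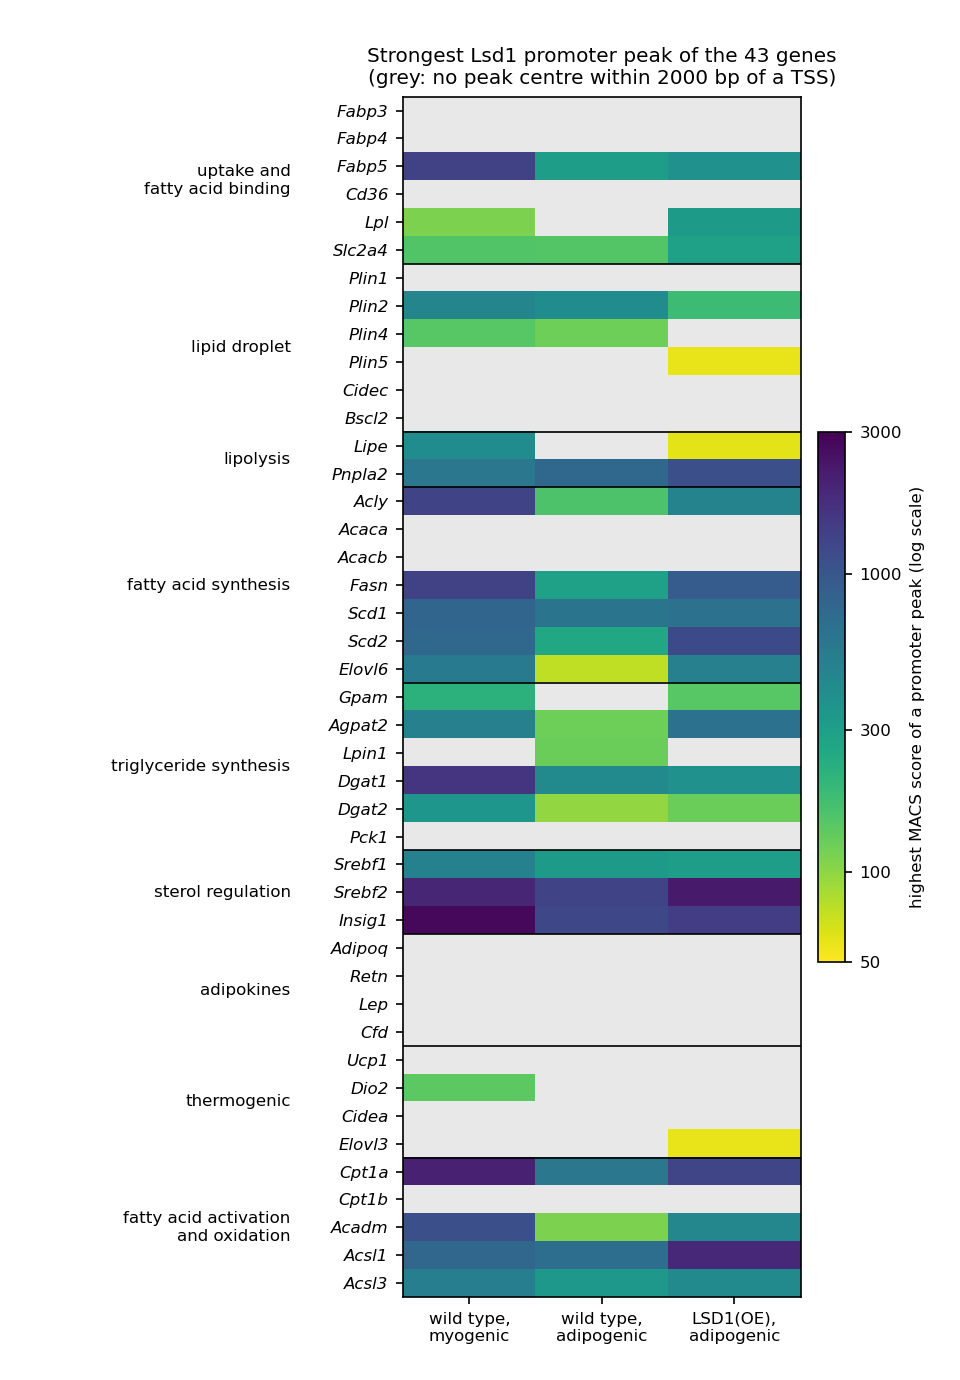
Highest score of a promoter peak (colour, log scale) for each of the 43 genes (rows, by role) in each library (columns), with grey for no promoter peak. Sterol regulation, fatty acid synthesis and activation and oxidation are mostly filled in all 3 columns, and the adipokine block is grey throughout.

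Of the genes of sterol regulation, Insig1 and Srebf2 were among the 5 highest promoter scores of the list in every library, and Srebf1 was not. Insig1, whose product holds the SREBP precursors in the endoplasmic reticulum, had the highest score of the 43 genes in the myogenic library, 2766, with 380 tags at chr5:28069897-28072728. Its peaks had scores of 1232 (377 tags) and 1425 (282 tags) in the adipogenic and LSD1(OE) libraries. The tag densities at Insig1, in tags per kb and per 1000000 ChIP tags, were 2.91 (exact Poisson interval 2.62 to 3.21), 1.98 (1.79 to 2.19) and 2.2 (1.95 to 2.48). The myogenic density thus lay above the others, and the LSD1(OE) and wild-type adipogenic densities overlapped within counting error.

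Srebf2, which encodes the SREBP of cholesterol synthesis, led the list by score in both adipogenic-medium libraries. With the peaks of the 3 libraries joined, it had the broadest promoter region, of 5310 bp. Its scores were 1945, 1304 and 2218 from 488, 493 and 476 tags, and its densities 2.31 (2.11 to 2.53), 1.71 (1.56 to 1.87) and 2.22 (2.02 to 2.42). Both the myogenic and the LSD1(OE) density lay above the wild-type adipogenic one. Srebf2 lies on chromosome 15, where other protein-coding genes had promoter peaks at 67.5, 57.7 and 62.5% in the 3 libraries, against 52.6, 30.2 and 41.9% on the other autosomes, and the part of this in the Srebf2 values was not tested. Srebf1, which encodes the SREBP isoforms of fatty acid synthesis, had its strongest peak in an intron, 448 bp downstream of an internal TSS in the myogenic library. The Srebf1 scores at this site were 500, 320 and 307, with densities of 1.61 (1.35 to 1.90), 1.33 (1.14 to 1.54) and 1.30 (1.08 to 1.55) that overlapped. Near its most upstream TSS, Srebf1 had weaker peaks with scores of 381, 95.4 and 172. Their densities were 1.67 (1.36 to 2.04), 1.09 (0.853 to 1.37) and 1.21 (0.957 to 1.51), and the myogenic and wild-type adipogenic intervals only just overlapped. At another internal TSS, Srebf1 had a myogenic peak (score 265) and an LSD1(OE) peak (238), and no wild-type adipogenic peak.

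Of the genes of fatty acid synthesis, Acly, Fasn, Scd1, Scd2 and Elovl6 were occupied in all libraries, and Acaca and Acacb had no promoter peak at a curated TSS. Acly, whose product makes cytosolic acetyl-CoA from citrate, had scores of 1290, 157 and 484 from 234, 91 and 133 tags. Its density was 2.50 (2.19 to 2.84) in the myogenic library and 1.26 (1.01 to 1.55) in the adipogenic one, a log2 ratio of 0.99 that was the largest among the 19 genes occupied in all libraries, and it was 1.63 (1.37 to 1.94) in the LSD1(OE) library. Fasn, the fatty acid synthase gene, had scores of 1358, 290 and 911, with densities of 2.09 (1.84 to 2.36), 1.41 (1.19 to 1.66) and 1.69 (1.49 to 1.90). At both genes the myogenic density lay above the wild-type adipogenic one, and the LSD1(OE) value lay between them.

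The stearoyl-CoA desaturase genes Scd1 and Scd2, which both lie on chromosome 19, differed in order. Scd1 had scores of 785, 619 and 647 and densities of 1.85 (1.58 to 2.14), 1.44 (1.28 to 1.61) and 1.60 (1.4 to 1.81). Scd2 had scores of 759, 264 and 1190 and densities of 1.63 (1.46 to 1.83), 1.18 (1.01 to 1.38) and 1.59 (1.42 to 1.77). The wild-type adipogenic density of Scd2 lay below both others, whereas the 3 intervals of Scd1 overlapped. Elovl6, which encodes the elongase of palmitate, had scores of 559, 74.5 and 503 from 184, 79 and 183 tags, and densities of 1.43 (1.23 to 1.66), 0.966 (0.764 to 1.20) and 1.38 (1.19 to 1.60). The Elovl6 peaks also lay within 2000 bp of the TSS of Gm35986, and all 3 were lost when a peak was given only to its nearest TSS.

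In triglyceride synthesis 3 of the 6 genes, Dgat1, Dgat2 and Agpat2, were occupied in all libraries. Dgat1, which encodes a diacylglycerol acyltransferase, had the highest density of the list in the myogenic library, 3.28 (2.87 to 3.74) from 226 tags, with a score of 1623. Its adipogenic and LSD1(OE) densities were 1.84 (1.58 to 2.13) and 1.61 (1.37 to 1.89), with scores of 433 and 380. Dgat1 also lies on chromosome 15. Dgat2, which encodes the second, unrelated acyltransferase, was weaker, with scores of 350, 96.5 and 125 and densities of 1.67 (1.34 to 2.05), 1.05 (0.838 to 1.30) and 1.13 (0.870 to 1.44). At both genes the adipogenic and LSD1(OE) densities overlapped, and at both the myogenic density was above the wild-type adipogenic one.

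Agpat2, whose product acylates lysophosphatidic acid, showed another order, with scores of 505, 124 and 642 and densities of 1.63 (1.37 to 1.94), 1.10 (0.892 to 1.34) and 1.61 (1.38 to 1.86). The wild-type adipogenic density was the lowest there, apart from both others. Gpam, which encodes the mitochondrial glycerol-3-phosphate acyltransferase, had promoter peaks in the myogenic library (score 216, 80 tags) and the LSD1(OE) library (145, 85 tags) and none in the wild-type adipogenic one. Its densities were 1.52 (1.20 to 1.89) and 1.07 (0.854 to 1.32). A further Gpam region, 3.89 kb upstream of its nearest TSS and in an intron of the longer transcript, had peaks in all 3 libraries with scores of 330, 78.1 and 275. Lpin1, a phosphatidate phosphatase gene, had a promoter peak only in the adipogenic library (score 125, 75 tags). It lay 1769 bp upstream of an internal TSS, in an intron, and was lost when only the most upstream curated TSS counted. An overlapping myogenic peak with its centre 2006 bp upstream of that internal TSS fell just outside the window. Pck1, which encodes the carboxykinase of glyceroneogenesis, had no peak of either kind.

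The genes of fatty acid activation and oxidation were occupied in all libraries except for Cpt1b. Cpt1a, which encodes the liver-type carnitine palmitoyltransferase of the mitochondrial outer membrane, had scores of 2076, 594 and 1283 from 417, 274 and 357 tags. Its densities were 2.03 (1.84 to 2.24), 1.48 (1.31 to 1.67) and 1.64 (1.48 to 1.82). The myogenic density was above both others, and the other two overlapped. Cpt1b, the muscle-type enzyme, had no peak of either kind, and the nearest peak centres lay 4513, 4141 and 4035 bp upstream.

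Acsl1 and Acsl3 encode long-chain acyl-CoA synthetases, which activate fatty acids. Acsl1 stood second in the LSD1(OE) library by score, with scores of 774, 685 and 1865 from 181, 306 and 398 tags. Its densities were 1.75 (1.5 to 2.02), 1.46 (1.31 to 1.64) and 2.11 (1.91 to 2.33), so that the LSD1(OE) interval was apart from the wild-type adipogenic one and overlapped with the myogenic one. Acsl3 had scores of 522, 340 and 429 and densities of 1.97 (1.61 to 2.38), 1.53 (1.29 to 1.80) and 1.48 (1.24 to 1.75), which overlapped. Its promoter peaks also lay within 2000 bp of a TSS of Utp14b. Acadm, the medium-chain acyl-CoA dehydrogenase gene, had scores of 1107, 112 and 451 and densities of 1.91 (1.68 to 2.17), 1.13 (0.895 to 1.4) and 1.25 (1.07 to 1.46), with the myogenic density above both others.

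Both lipase genes were occupied, in different ways. By deposited score, Pnpla2, which encodes adipose triglyceride lipase, was the only one of the 19 genes with a higher score in both adipogenic-medium libraries, 759 and 1112, than in the myogenic library, 594. With scores divided by the MACS scaling factor, Acsl1 (408, 537 and 1022) and Slc2a4 (79.5, 118 and 158) showed this order too. The tags of Pnpla2 were 122, 254 and 230, and its densities, 2.18 (1.81 to 2.61), 1.84 (1.62 to 2.08) and 2.04 (1.78 to 2.32), overlapped, since the called peak was 1211 bp long in the myogenic library and 2163 and 2045 bp in the others. Lipe, the hormone-sensitive lipase gene, had a myogenic peak with a score of 407 (104 tags, density 1.66, 1.35 to 2.01), at a TSS shared within 2000 bp with 4732471J01Rik. At its other, internal TSS, Lipe had a myogenic peak with a score of 75.2 and an LSD1(OE) peak with a score of 59.5 (44 tags, density 0.948, 0.689 to 1.27), and no adipogenic peak.

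Of the 6 lipid droplet genes, Plin2, the perilipin of non-adipose cells, was occupied in all libraries. Plin2 had scores of 463, 408 and 180 and densities of 1.61 (1.34 to 1.92), 1.46 (1.26 to 1.68) and 1.31 (1.03 to 1.64), which overlapped. A second myogenic Plin2 peak was centred 1989 bp upstream, just inside the window. Plin4, another perilipin gene, had peaks in the myogenic library (score 145, 66 tags, density 1.17, 0.905 to 1.49) and the adipogenic library (123, 88 tags, 1.27, 1.02 to 1.57) and none in the LSD1(OE) library. Plin5, the perilipin of oxidative tissues, had only an LSD1(OE) peak, with a score of 57.6 and 41 tags. Plin1, the adipocyte perilipin gene, had no promoter peak and a single gene body peak (LSD1(OE), score 84.9, 36 tags), and Cidec and Bscl2, which act in droplet fusion and droplet assembly, had no peak of either kind.

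Of the 6 uptake and binding genes, Fabp5, Slc2a4 and Lpl were occupied. Fabp5, which encodes a fatty acid binding protein of many tissues, had scores of 1341, 300 and 379 from 212, 159 and 140 tags, and densities of 2.51 (2.18 to 2.87), 1.36 (1.15 to 1.58) and 1.36 (1.14 to 1.60). By score, the adipogenic and LSD1(OE) peaks of Fabp5 stood at percentiles 83.3 and 76.4 of the promoter peaks of their libraries. The myogenic Fabp5 density was above both others. Of 5041 other genes with a promoter region shared by all 3 libraries, 96.7% also had a higher myogenic than wild-type adipogenic density. Slc2a4, the gene of the insulin-responsive glucose transporter of muscle and fat, showed no such difference, with densities of 1.20 (0.934 to 1.51), 1.16 (0.951 to 1.4) and 1.17 (0.981 to 1.39) and scores of 151, 151 and 288. Lpl, the lipoprotein lipase gene, had 3 small myogenic peaks within the window, the strongest with a score of 112 (48 tags, density 1.18, 0.872 to 1.57), no adipogenic peak, and 1 LSD1(OE) peak with a score of 321 (120 tags, density 1.28, 1.06 to 1.53). Fabp3, Fabp4 and Cd36, which bind or take up fatty acids in muscle, adipocytes and other tissues, had no peak of either kind.

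The adipokine genes were free of promoter peaks in all 3 libraries. Adipoq, Retn and Cfd, which encode adiponectin, resistin and adipsin, had no peak of either kind. Near Cfd, peaks centred 2675 bp (myogenic, score 426) and 2152 bp (LSD1(OE), score 66.9) from the TSS were outside the window. Cfd had a promoter peak in both of these libraries when any overlap with the window counted. Lep, the leptin gene, had only a myogenic intronic peak, with a score of 96.5 and 44 tags. Among the 4 thermogenic genes, Dio2, which encodes the deiodinase that activates thyroid hormone, had a peak in the myogenic library alone (score 140, 57 tags, density 1.23, 0.930 to 1.59, 45 bp upstream of the TSS). Elovl3, an elongase gene of brown fat, had a peak in the LSD1(OE) library alone (score 57.5, 38 tags). Ucp1, the uncoupling protein gene, and Cidea, a droplet gene of brown fat, had no peak of either kind. Where only the strongest promoter peak of each gene and library is taken, the single-library peaks of Plin5 and Elovl3 and the LSD1(OE) peak of Lipe had the lowest scores of the list, and all 3 were lost at a score of 50 when the score was divided by the factor by which MACS had scaled the tags (31.6, 31.5 and 32.6).

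**Figure D3:**
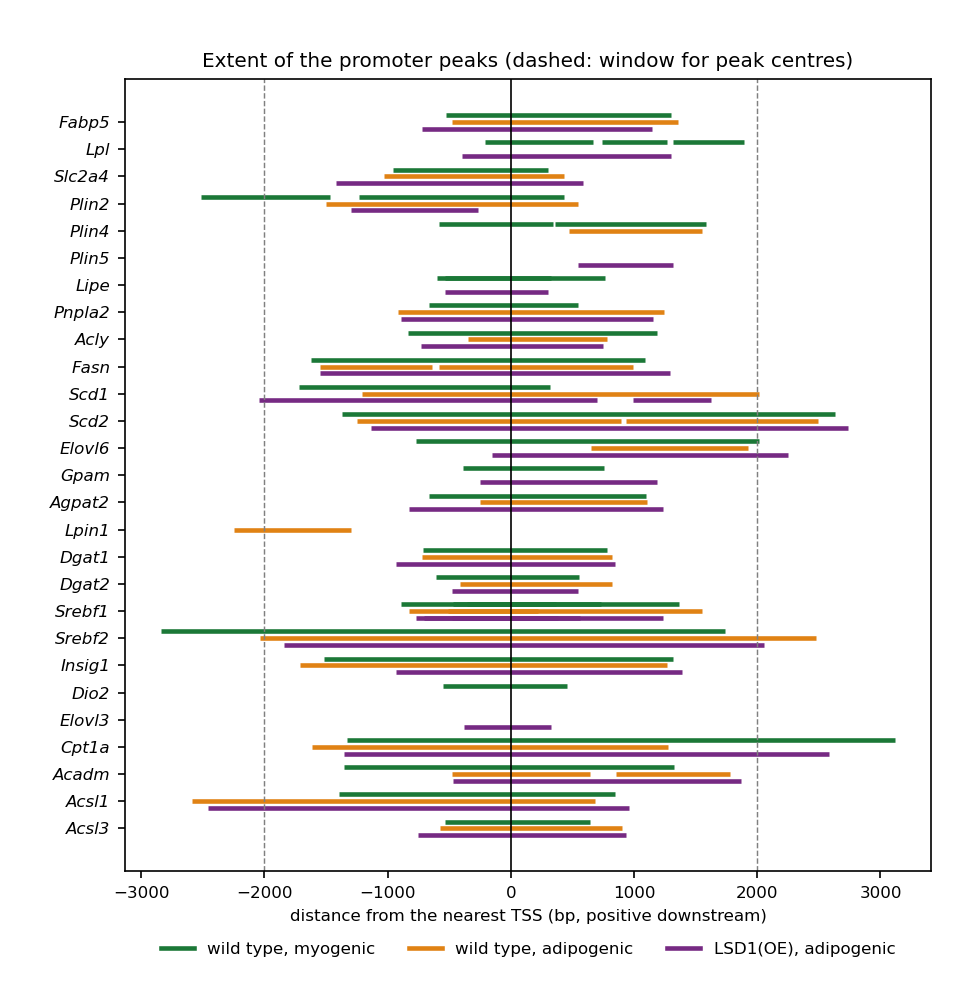
Extent of every promoter peak of the 27 occupied genes, as distance from the nearest TSS in bp (positive is downstream), with 1 line per library and dashed lines at 2000 bp. Most peaks spanned the TSS, with those of Srebf2, Cpt1a and Scd2 the broadest. The adipogenic peak of Lpin1 stayed upstream of its nearest TSS, which is an internal one.

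Tag density was compared at the 19 genes whose strongest promoter peaks overlapped in all 3 libraries. The median log2 ratio of myogenic to wild-type adipogenic density was 0.47, as it was for 5041 other genes with such a shared region, and that of LSD1(OE) to wild-type adipogenic density was 0.15, against 0.16. Myogenic density was higher at 19 of 19 genes, with a background of 96.7%, and LSD1(OE) density at 15 of 19, with a background of 74.2%. On this scale the medians of the lipid genes were close to those of the other genes. Without division by peak length the medians were 0.57 and 0.16, against 0.78 and 0.27 for the other genes, so that the medians of the lipid genes were then the smaller ones. The myogenic interval was entirely above the wild-type adipogenic one at 12 of 19 genes, with a background of 42.9%. The LSD1(OE) interval was entirely above it at 4 of 19, namely Acsl1, Agpat2, Scd2 and Srebf2, with a background of 8.17%. The strongest peaks of the 19 genes had median lengths of 2028, 1834 and 2065 bp, against 1640, 1301 and 1436 bp, and longer peaks hold more tags and give narrower intervals.

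**Figure D4:**
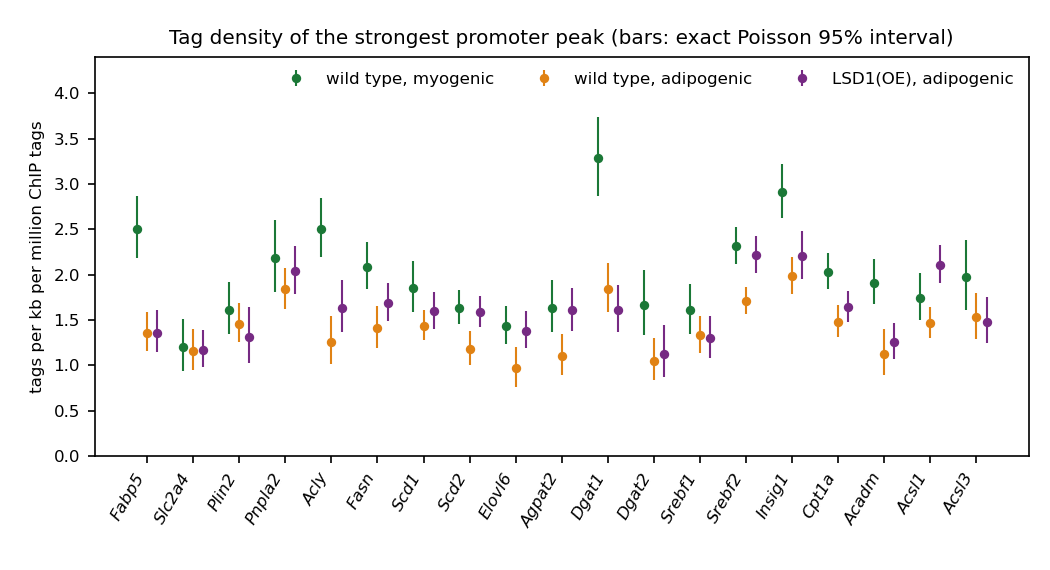
Tag density of the strongest promoter peak (tags per kb and per 1000000 ChIP tags) at the 19 genes with an overlapping promoter peak in all 3 libraries, with exact Poisson 95% intervals. Myogenic points are the highest of each gene except at Acsl1, and the widest gaps between the myogenic and the wild-type adipogenic library are at Acly, Fabp5 and Dgat1.

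Gene body peaks were found at 19, 20 and 22 of the 43 genes, against backgrounds of 44.2%, 24.9% and 35.7%. The genes were shorter than the others, with a median length of 13.3 against 16.7 kb, and they held 2.68, 2.30 and 3.30 peaks per 100 kb of gene body, against 2.34, 0.995 and 1.78. Many of these peaks were also promoter peaks, and without the 2000 bp after each TSS 12, 10 and 12 of the 43 genes had a gene body peak, against 24.6, 13.003 and 19.5% of the other genes. Acaca and Acacb, the acetyl-CoA carboxylase genes, had gene body peaks only, by their curated TSSs. Acacb had an intronic peak 10.3 kb from its curated TSS in all 3 libraries (scores 265, 104 and 232), and Acaca had 2 weak myogenic peaks (76.2 and 57.4). This depended on the TSSs used. With the TSSs of all RefSeq transcripts, both genes gained a promoter peak in all 3 libraries.

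When overlapping promoter and gene body peaks of the 3 libraries were joined, the 43 genes held 66 regions, of which 26 (39.4%) had a peak in every library, against 24.7% of the regions at other genes. No region was found in the wild-type adipogenic library alone, a class that held 3.13% of the regions at other genes. There were 6 regions with a peak in both adipogenic-medium libraries and none in the myogenic library, 9.09% of the 66 regions, against 2.03% of 35234 regions at other genes. This class was singled out after its values were seen. All 6 were intronic, at Acsl1, Cpt1a (2 regions), Dgat1, Srebf1 and Srebf2, 5 genes whose promoters were occupied in all 3 libraries. Without chromosome 15, on which Dgat1 and Srebf2 lie, there were 4 of 55 regions (7.27%), against 2.01%.

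The strongest of them lay in Cpt1a, 10.5 kb from the TSS, with a score of 439 (203 tags, density 1.47, 1.27 to 1.68) in the adipogenic library and 622 (184 tags, 1.60, 1.38 to 1.85) in the LSD1(OE) library. The other Cpt1a region, 30.2 kb from the TSS, had scores of 151 (92 tags) and 349 (124 tags). The promoter peak of Cpt1a was weaker in these libraries than in the myogenic one, which is the opposite order to that of its introns. The Acsl1 region, 21.8 kb from the TSS, had scores of 242 (121 tags) and 83.5 (51 tags). The score was thus higher in the wild-type cells, but the densities, 1.43 (1.19 to 1.71) and 1.03 (0.764 to 1.35), overlapped within counting error. The Acsl1 promoter peak had the higher score and density in the LSD1(OE) cells. The regions of Dgat1 (4.29 kb, scores 57.2 and 133), Srebf1 (3.92 kb from its nearest TSS, 112 and 95.1) and Srebf2 (3.17 kb, 111 and 78.5) were weaker. At Dgat1, Srebf2 and Acsl1 a peak of 1 of the libraries fell under a score of 50 on unscaled tags (44.8, 43.04 and 45.7), whereas both Cpt1a regions were counted at every setting tried.

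The 150 bases around the wild-type adipogenic summits of the Acsl1 region and of both Cpt1a regions are shown because peaks were called there in the adipogenic-medium libraries only. They are read 5′ to 3′ on the plus strand of GRCm38.p6, which is also the strand of both genes, at chr8:46512713-46512862, chr19:3333535-3333684 and chr19:3353701-3353850. Capitals mark the E-box CAGCTG.
Acsl1, 21.8 kb: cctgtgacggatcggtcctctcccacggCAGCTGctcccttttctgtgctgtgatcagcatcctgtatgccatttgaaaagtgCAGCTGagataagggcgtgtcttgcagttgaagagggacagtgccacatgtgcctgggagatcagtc
Cpt1a, 10.5 kb: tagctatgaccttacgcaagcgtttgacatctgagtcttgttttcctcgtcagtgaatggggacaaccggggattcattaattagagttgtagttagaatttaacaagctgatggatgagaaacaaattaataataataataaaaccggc
Cpt1a, 30.2 kb: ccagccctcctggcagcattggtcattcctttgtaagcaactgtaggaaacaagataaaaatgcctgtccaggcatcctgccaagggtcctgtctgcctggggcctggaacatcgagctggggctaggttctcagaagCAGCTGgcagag
An E-box stood in 2 of these windows and in that of Dgat1, and in 17.2% of the same windows around all 18893 wild-type adipogenic summits. No AP-1 motif TGANTCA, C/EBP motif, GC box, sterol element TCACNCCAC or DR1 (direct repeats of AGGTCA spaced by 1 base, the element of PPARs) was found in the 6 windows, and these stood in 11.2, 2.62, 16.7, 0.503 and 0.0265% of all windows.

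A further intronic site differed in strength. In Acsl3, 44.6 kb from the TSS, the LSD1(OE) library had a peak with a score of 1784 and 333 tags, higher than the score of the Acsl3 promoter in any library. The same region had 44 tags and a score of 79.4 in the myogenic library and 107 tags and 133 in the wild-type adipogenic one. The densities were 2.23 (2.00 to 2.49), 1.05 (0.765 to 1.41) and 1.25 (1.02 to 1.51) in the LSD1(OE), myogenic and adipogenic libraries, so that the LSD1(OE) interval lay above both. Srebf2 held the most gene body peaks of the list, 5, 4 and 7, and among them a region 14.2 kb from the TSS had a score of 524 in the myogenic library, 62.2 in the LSD1(OE) library and no adipogenic peak.

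**Figure D5:**
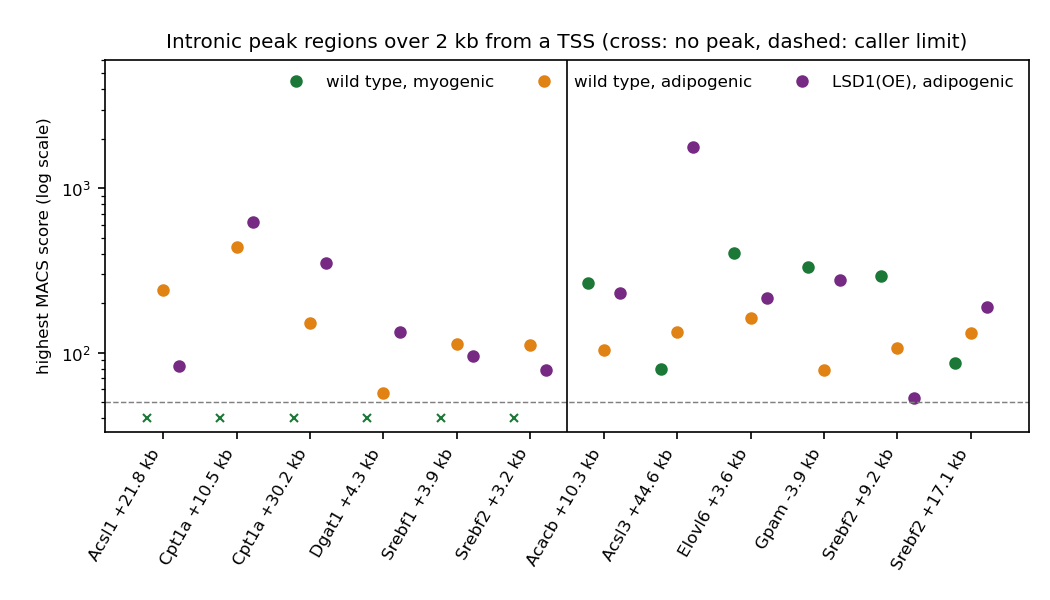
Highest score (log scale) of the intronic regions more than 2 kb from a TSS that had a peak in both adipogenic-medium libraries, left of the line without and right of it with a myogenic peak, with crosses for no peak. The labels give the distance from the nearest TSS, and the LSD1(OE) score at Acsl3 (1784) stands above all others.

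The promoters of the 43 genes were somewhat poorer in CpG than the others. The ratio of observed to expected CpG within 500 bp of the TSS had a median of 0.540, against 0.615 for the other protein-coding genes. CpG-rich promoters, at 0.6 or more, were 18 of the 43 (41.9%), against 51.5% of the others. The 19 genes occupied in all libraries had a median ratio of 0.684 (range 0.391 to 0.946), and the 16 without a promoter peak 0.270 (0.128 to 0.658). Of the CpG-rich lipid genes 83.3, 72.2 and 83.3% had a promoter peak in the myogenic, adipogenic and LSD1(OE) libraries, against 80.2, 48.4 and 64.8% of the other CpG-rich genes. Of the 25 CpG-poor ones 36, 32 and 36% did, against 21.2, 10.3 and 16.1%. Plin2 and Scd2 were occupied in all libraries with ratios of only 0.391 and 0.443, while Fabp3, Bscl2 and Cidea, at 0.620, 0.632 and 0.658, had no promoter peak.

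An upstream sequence was at hand for 32 of the 43 genes, and the motifs were searched in its 250 bases before the TSS, on both strands. Fabp4, Fabp5, Lpl, Slc2a4, Scd1, Scd2, Dgat1, Dgat2, Cidea, Elovl3 and Cpt1b had no entry. A GC box stood in 12 of 19 promoters with an Lsd1 peak in any library and in 3 of 13 without, and in 47.2% of 16821 other promoters. The E-box stood in 7 of the 32 (21.9%, others 14.0%), the AP-1 motif in 2 (6.25%, others 7.33%) and the C/EBP motif in 2, those of Acly and Dio2 (6.25%, others 5.33%). The sterol element was found only in the Acsl1 promoter (others 1.24%), and DR1 in none (others 0.0535%). Only exact matches to these letters were counted, here and in the summit windows, so variants of a motif were missed. DR1 stood in 9 of the 16821 other promoters, so its absence from 32 promoters says little. Motif letters and CpG ratio are related, since the GC box itself holds a CpG, and these counts are descriptions.

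The 50 other genes of lipid pathways, such as those of cholesterol synthesis, fatty acid transport and β-oxidation, were occupied more often than the 43 in each library, at 40, 34 and 37 promoters. These were 80, 68 and 74%, against 51.5, 29.9 and 41.1% of the other protein-coding genes. Of the 50, 64% were CpG-rich, against 41.9% of the 43 and 51.5% of the other protein-coding genes. Within CpG-rich promoters 87.5, 78.1 and 81.25% were occupied, against 83.3, 72.2 and 83.3% of the 43. Within CpG-poor ones the shares were 66.7, 50 and 61.1%, against 36, 32 and 36%. All 3 libraries shared a promoter peak at 33 of them (66.0%). The highest myogenic scores were at Sqle, the squalene epoxidase gene on chromosome 15 (2321, 755 and 1495 in the 3 libraries), at Fads2, a fatty acid desaturase gene (1525, 423 and 877), and at Lpin2, a relative of Lpin1 (927, 291 and 829). The wild-type adipogenic score was the lowest at all 3 of these genes.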

How the data were processed

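Per the labels, the study's methods and the file headers, the authors mapped single 50 bp reads to mm10 with Bowtie2 and ran MACS 1.4.2 on every ChIP with the matched input as control (p-value limit 1e-05) (the submitters' processing notes list MACS 1.41). The deposited peak lists give a count of ChIP tags per peak (not normalized), a score (10 times the −log10 of the p-value, on tags scaled up to the input), a fold ratio over the local background and an FDR in percent. The fold ratio was not compared between libraries, and the BED files, which hold the same peaks, were not used. All deposited peaks passed an FDR under 1%.

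TSSs, gene bodies and sequences came from RefSeq on GRCm38.p6. Tags per kb and per 1000000 filtered ChIP tags were given exact Poisson intervals, and shares Wilson intervals, at 95%. The members and all lists were chosen with earlier results of these data known. Every member is accounted for, in full where it had a promoter peak in 2 or more libraries or was among the 5 highest scores of a library, and the 3 strongest of 50 further pathway genes are named. Alternatives concerned peak thresholds, windows, assignment and scaling. The scripts (Python 3.11.15, NumPy 2.4.6, pandas 2.3.3, SciPy 1.17.1, pysam 0.24.0) were tested on simulated peaks. Sequences of 11 members were not at hand and are not shown.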

Additional observations from a re-analysis of the deposited data

How the results depend on the processing

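No paired analysis was possible because each condition has 1 library and the labels carry no replicate numbers. Of 122 recomputed values, 114 stayed within 1.5 times the reported count or within the limits set for the density ratios and CpG-rich shares. For the density ratios the limit was the median counting error of a single gene's ratio. For the CpG-rich shares it was the Wilson interval of 18 genes, 60.8 to 94.2% in the myogenic library. Both limits are wide, so these 2 checks say little about stability. The exceptions were as follows. Genes with a gene body peak numbered 12, 10 and 12 (myogenic, adipogenic, LSD1(OE)) without the 2000 bp after any TSS, and 29 in the myogenic library when any overlap counted (other genes 56.9%). Genes with a myogenic and no wild-type adipogenic promoter peak numbered 2 with equal peak numbers, against 4, where the other genes stood at 13.5% against 22.5%. Those with an LSD1(OE) and no wild-type adipogenic promoter peak numbered 2 with equal peak numbers, 2 with unscaled tags and 3 with only the most upstream TSS, against 5, where the other genes stood at 8.45, 10.6 and 14.3% against 14.4%. Promoter peaks at the 43 genes numbered 23, 18 and 20 at an FDR of 0.1%, against 43.7, 17.7 and 28.1% of the other genes. With equal peak numbers they numbered 21, 21 and 21, against 40.5, 29.9 and 32.2%. Alternatives without chromosome 15, with a CpG cut-off of 0.5 and for the regions in both adipogenic-medium libraries were chosen after seeing the data. Those regions numbered 4 to 7, but at the stricter thresholds Acsl3 and a further Srebf2 region entered the count because their weak myogenic peaks no longer passed.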
